A study of Rattus norvegicus with 12 samples.

Results

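The 10 genes described here encode the enzymes that build fatty acids from acetyl-CoA, lengthen them and introduce double bonds. They were chosen by name from the platform annotation, with earlier results of these data known. Probe sets that name exactly 1 gene were kept. All 10 genes, Acly, Me1, Acaca, Acacb, Fasn, Elovl5, Elovl6, Scd, Fads1 and Fads2, had such a probe set. They account for 14 of the 15866 probe sets tested and for 10 of the 10411 genes. Rats with a thermal injury were set against sham-treated controls, in 1 ratio per sample, on days 2, 4 and 7, and each of these days had 3 samples. The series also holds 3 samples of day 1, which were not used because their identifiers do not stand for the same probe sets as on the other days. The labels name no tissue, strain, sex or age, and give no animal for a sample and do not mention pooling, so p-values measure only the spread between these samples. The values are log2 ratios centred on the median of each array. Which group is the numerator is not given. The labels describe 2 channels, on an array type that uses 1 colour. Injury over sham is likely from these channel labels, and every direction below rests on that reading. The number of arrays limits the precision.

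In the cytosol, ATP citrate lyase (Acly) releases acetyl-CoA from citrate, acetyl-CoA carboxylase (Acaca and Acacb) turns it into malonyl-CoA, and fatty acid synthase (Fasn) joins these units into palmitate with NADPH that malic enzyme (Me1) helps to supply. Elongases (Elovl6 and Elovl5) and desaturases (Scd, Fads1 and Fads2) then shape palmitate and dietary fatty acids into longer and unsaturated forms. In liver and adipose tissue the pathway is induced by feeding and insulin through the transcription factors SREBP-1c and ChREBP, and AMP-activated protein kinase inhibits acetyl-CoA carboxylase by phosphorylation.

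The enzyme genes lay mostly above 0 at day 2 and mostly below 0 at day 4, and were mixed at day 7, but none of them passed the test on any day. At day 2, 9 of 10 genes had a mean ratio above 0 with a median of 0.32, against 50.8% of all genes and a median of 0.00472 over all genes, and Elovl6 alone was below 0 (49.2% of all genes). At day 4, 8 of 10 had a mean below 0 with a median of -0.38, against 49.0% of all genes and a median of 0.00634, and 2 of 10 were above 0 (51.0%). At day 7, 7 of 10 had a mean below 0 with a median of -0.11, against 51.6% and -0.0131, and 3 of 10 were above 0 (48.4%). In limma with Benjamini-Hochberg adjustment over all genes, 0 of the 10 passed an adjusted p of 0.05 at day 2, day 4 or day 7, where 0.144%, 0% and 0.0480% of all genes passed. At an unadjusted p under 0.05, 4 of 10 stood at day 2 (Acacb, Scd, Elovl5 and Fads1, all above 0; 8.48% of all genes), 3 of 10 at day 4 (Acacb, Elovl5 and Elovl6, all below 0; 10.7%) and 2 of 10 at day 7 (Acaca and Acacb, both above 0; 12.4%). Over the mean of the 3 days, 0 of 10 passed (0.327% of all genes), with Acaca and Acacb above 0 and Elovl6 below 0 at an unadjusted p under 0.05 (10.2% of all genes).

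**Figure D1:**
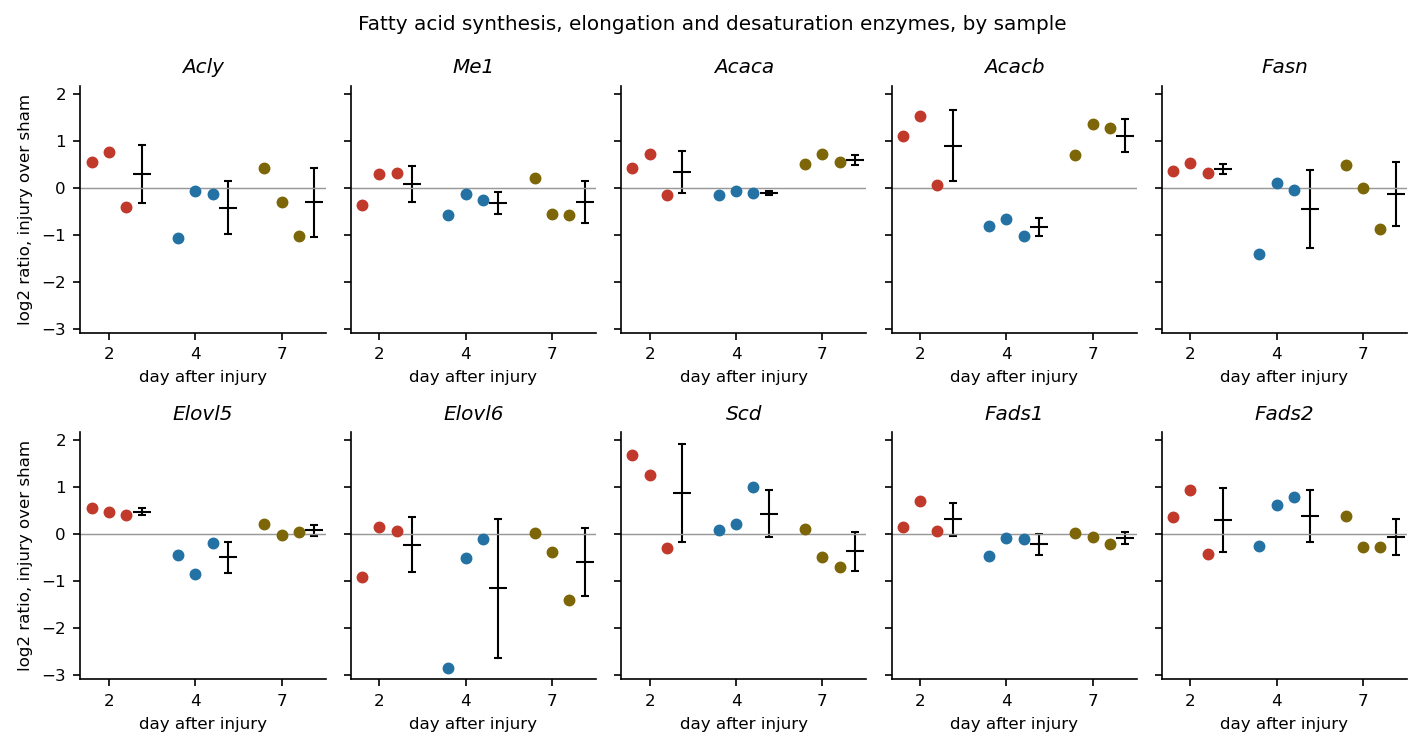
Centred log2 ratio of injury over sham (vertical axis) of each of the 10 enzyme genes in samples 1 to 3 of days 2, 4 and 7 (points, left to right within a day), with the mean and SD of the 3 samples as a black bar. In the mean of each gene's probe sets, all 3 samples of day 4 lie below 0 for 7 of the 10 genes. Acacb separates day 4, between -1.03 and -0.67, from day 7, between 0.70 and 1.36.

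At day 2, 4 of 10 genes (Acacb, Elovl5, Fads1 and Fasn) were above 0 in all 3 samples, against 13.8% of all genes, and 0 of 10 were below 0 in all 3 (13.1%). At day 4, 7 of 10 (Acly, Me1, Acaca, Acacb, Elovl5, Elovl6 and Fads1) were below 0 in all 3 samples (16.2% of all genes). Only 1, Scd, was above 0 in all 3 (18.3%). These counts use the mean of each gene's probe sets. At day 4, probe set 1370893_at of Acaca was above 0 in all 3 samples. Probe set 1370870_at of Me1 was at 0.04 in sample 2, and 1388348_at of Elovl5 at 0.07 in sample 3. At day 7, Acaca and Acacb were above 0 in all 3 samples (15.6% of all genes) and 0 of 10 were below 0 in all 3 (18.0%). Probe set 1370893_at of Acaca was at -0.09 in sample 3 of day 7. The samples of a day also differed from each other. At day 2 the median of the 10 genes was 0.40, 0.72 and 0.07 in samples 1 to 3, with 8, 10 and 6 of 10 genes above 0. At day 4 it was -0.53, -0.07 and -0.11, with 1, 3 and 2 genes above 0. At day 7 it was 0.30 in sample 1, with 10 of 10 genes above 0, and -0.17 and -0.43 in samples 2 and 3, with 2 and 3 genes above 0. Sample 1 of day 7 thus stood on the other side of 0 from samples 2 and 3 for most of the enzymes.

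Acly and Me1 supply the pathway with acetyl-CoA and NADPH. Acly was at 0.54, 0.76 and -0.41 in samples 1 to 3 of day 2, at -1.07, -0.07 and -0.14 at day 4, and at 0.43, -0.32 and -1.04 at day 7. Its samples overlapped between all 3 days. The means were 0.29 ± 0.62, -0.42 ± 0.56 and -0.31 ± 0.73 (SD, n = 3 each; limma adjusted p = 0.84, 0.671 and 0.715). Me1 was at -0.37, 0.28 and 0.31 at day 2, at -0.59, -0.14 and -0.26 at day 4, and at 0.21, -0.56 and -0.58 at day 7. In the mean of its probe sets, day 4 was below 0 throughout, while days 2 and 7 held samples on both sides of 0. Its means were 0.07 ± 0.38, -0.33 ± 0.23 and -0.31 ± 0.45, none passing (limma adjusted p = 0.952, 0.575 and 0.534).

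Acaca and Acacb encode the 2 forms of acetyl-CoA carboxylase. Acaca is the cytosolic form that feeds synthesis, and Acacb sits at the outer mitochondrial membrane, where its malonyl-CoA restrains the entry of fatty acids for oxidation. Acacb had the widest difference between day means among the 10 genes. It rests on 1 probe set, 1369328_at, the dimmest of the 14, with 45.4% of all probe sets dimmer. Acacb was at 1.10, 1.52 and 0.06 in samples 1 to 3 of day 2. It was at -0.82, -0.67 and -1.03 at day 4, and at 0.70, 1.36 and 1.26 at day 7. All samples of days 2 and 7 were above 0 and all samples of day 4 below 0. The means correspond to a 1.86-fold higher level after injury at day 2 (0.90 ± 0.75, limma adjusted p = 0.361), a ratio of 0.560 at day 4 (-0.84 ± 0.18, adjusted p = 0.302) and a 2.16-fold higher level at day 7 (1.11 ± 0.36, adjusted p = 0.159; SD, n = 3 each). Leaving out sample 1, 2 or 3 gave a day 2 mean of 0.79, 0.58 or 1.31 (adjusted p = 0.639, 0.796 and 0.117). Acaca was at 0.42, 0.73 and -0.16 at day 2, at -0.16, -0.07 and -0.12 at day 4, and at 0.51, 0.71 and 0.55 at day 7. In the mean of its probe sets, its day 7 samples lay close together and all above those of day 4. The means at days 2, 4 and 7 were 0.33 ± 0.45, -0.12 ± 0.04 and 0.59 ± 0.11 (limma adjusted p = 0.625, 0.895 and 0.178). Its probe sets 1370893_at and 1387538_at alone had SDs of 0.21 and 0.14 at day 4, and of 0.41 and 0.23 at day 7.

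Fasn, the synthase that makes palmitate, was at 0.36, 0.53 and 0.31 in samples 1 to 3 of day 2. It was at -1.41, 0.10 and -0.05 at day 4 and at 0.48, -0.00444 and -0.87 at day 7. Day 2 was above 0 in every sample, whereas the low mean of day 4 came from sample 1. The means were 0.40 ± 0.11, -0.45 ± 0.83 and -0.13 ± 0.68 (limma adjusted p = 0.75, 0.626 and 0.885), and without sample 1, 2 or 3 the day 4 mean was 0.03, -0.73 or -0.65. Elovl6, which lengthens palmitate to stearate, shared that sample. It was at -0.90, 0.15 and 0.08 at day 2, at -2.84, -0.51 and -0.11 at day 4, and at 0.02, -0.38 and -1.39 at day 7. The lowest values of Acly, Fasn and Elovl6 were all in sample 1 of day 4, and their next lowest were all in sample 3 of day 7. The mean of Elovl6 at day 4 was -1.15 ± 1.48 (limma adjusted p = 0.378) and was -0.31, -1.48 or -1.68 without sample 1, 2 or 3. Its means at days 2 and 7 were -0.23 ± 0.59 and -0.59 ± 0.73 (adjusted p = 0.938 and 0.647). The pooled SD within days was 1.01 for Elovl6, against a median of 0.378 over all genes.

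Elovl5, an elongase of polyunsaturated fatty acids, had the smallest pooled SD of the 10 genes, 0.210, in the mean of its 2 probe sets. At days 2, 4 and 7, 1387630_at alone had SDs of 0.20, 0.38 and 0.35. Those of 1388348_at were 0.08, 0.31 and 0.19. Elovl5 was at 0.56, 0.48 and 0.41 in samples 1 to 3 of day 2. It was at -0.45, -0.85 and -0.18 at day 4, and at 0.22, -0.00687 and 0.04 at day 7. The 3 days did not overlap in the mean of its probe sets, with day 2 highest and day 4 lowest. But 1 of its 2 probe sets, 1388348_at, had overlapping values at days 4 and 7, and 1387630_at at days 2 and 7. Its level was 1.40-fold higher at day 2 (0.48 ± 0.08, limma adjusted p = 0.287), the ratio was 0.711 at day 4 (-0.49 ± 0.33, adjusted p = 0.196), and the mean at day 7 was 0.08 ± 0.12 (adjusted p = 0.841).

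Scd, the desaturase that makes oleate from stearate, was at 1.69, 1.25 and -0.30 in samples 1 to 3 of day 2. It was at 0.10, 0.21 and 1.01 at day 4 and at 0.10, -0.49 and -0.70 at day 7. Sample 3 of day 2 stood on the other side of 0 from the samples beside it, and the day 2 mean of 0.88 ± 1.05 (1.84-fold, limma adjusted p = 0.459) was 0.47, 0.69 or 1.47 without sample 1, 2 or 3 (adjusted p = 0.823, 0.817 and 0.0548). The means at days 4 and 7 were 0.44 ± 0.50 and -0.36 ± 0.42 (adjusted p = 0.702 and 0.691). Fads1, the delta-5 desaturase of polyunsaturated fatty acids, was at 0.16, 0.71 and 0.08 at day 2, at -0.47, -0.07 and -0.11 at day 4, and at 0.03, -0.06 and -0.21 at day 7. Day 2 lay above both later days in every sample, with means of 0.32 ± 0.34, -0.22 ± 0.22 and -0.08 ± 0.12 (limma adjusted p = 0.555, 0.637 and 0.858). Fads2, the delta-6 desaturase, was at 0.37, 0.95 and -0.42 at day 2, at -0.25, 0.62 and 0.79 at day 4, and at 0.38, -0.27 and -0.28 at day 7. Its days overlapped, and its means of 0.30 ± 0.69, 0.39 ± 0.56 and -0.06 ± 0.38 did not pass (limma adjusted p = 0.799, 0.658 and 0.955). Fads2 and Scd were the 2 genes with a mean above 0 at day 4.

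**Figure D2:**
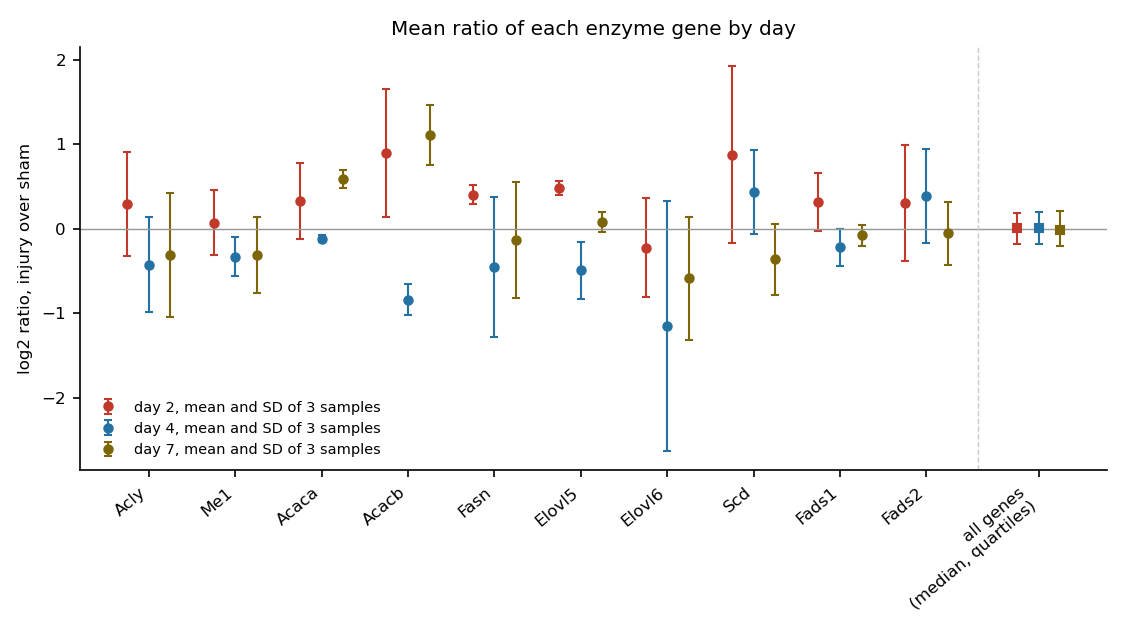
Mean centred log2 ratio of injury over sham with the SD of 3 samples (vertical axis) for the 10 enzyme genes at days 2, 4 and 7, beside the median and quartiles of all 10411 genes. At day 2, 9 of 10 means are above 0 and at day 4, 8 of 10 are below 0. The SD bars of most genes reach across 0 at days 2 and 7. At day 4 those of Me1, Acaca, Acacb, Elovl5 and Fads1 stay below 0, and the others reach across it.

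The difference between days was tested in the same fit. In limma's F test over the 3 days, 0 of 10 genes passed after adjustment (0.00961% of all genes passed). The highest F values were those of Acacb (F = 15.9, adjusted p = 0.136), Elovl5 (F = 15.3, adjusted p = 0.146), Acaca (F = 5.19, adjusted p = 0.339), Fads1 (F = 4.14, adjusted p = 0.4) and Scd (F = 4.11, adjusted p = 0.402). For day 4 minus day 2, 0 of 10 enzyme genes passed (0% of all genes), and 3 of 10 had an unadjusted p under 0.05 (8.65%). For this difference, 4 of 10 genes had day 4 samples that were all below the day 2 samples (Acacb, Elovl5, Fads1 and Fasn), against 7.03% of all genes, and 0 of 10 had them all above (7.38%). The differences were -1.73 for Acacb (SE 0.38, limma adjusted p = 0.27), -0.97 for Elovl5 (SE 0.18, adjusted p = 0.131), -0.53 for Fads1 (SE 0.19, adjusted p = 0.471) and -0.85 for Fasn (SE 0.39, adjusted p = 0.579).

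For day 7 minus day 4, 0 of 10 genes passed (0.0288% of all genes), and 3 of 10 had an unadjusted p under 0.05 (13.3%). In the mean of each gene's probe sets, the day 7 samples of Acaca, Acacb and Elovl5 were all above their day 4 samples. This held for 3 of 10 genes, against 8.58% of all genes. The day 7 samples of 0 of 10 were all below (11.1%). Acacb differed by 1.95 (SE 0.38, a 3.86-fold change of the ratio, limma adjusted p = 0.0672), Acaca by 0.71 (SE 0.22, adjusted p = 0.192) and Elovl5 by 0.57 (SE 0.18, adjusted p = 0.186). With limma's array weights Acacb passed for this difference, at 1.93 (adjusted p = 0.0475). For day 7 minus day 2, 0 of 10 passed (0% of all genes), and 2 of 10, Scd and Elovl5, had an unadjusted p under 0.05 (8.33%). By the same probe set mean, the day 7 samples of Elovl5 and Fads1 were all below their day 2 samples. This held for 2 of 10 genes, against 7.15% of all genes. The day 7 samples of 0 of 10 were all above (5.48%). Scd differed by -1.24 (SE 0.44, adjusted p = 0.523) and Elovl5 by -0.40 (SE 0.18, adjusted p = 0.586). Acacb differed by 0.21 between these days (SE 0.38, adjusted p = 0.919), less than its spread between samples.

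The DNA just upstream of the start is shown for Acacb, Elovl5 and Fads1, a choice made after their values were seen. In the mean of each gene's probe sets, their samples were all above 0 at day 2 and all below 0 at day 4. The sequences are the 250 bases before the annotated start, from RefSeq on GRCr8, 5′ to 3′ on the strand of the gene. The RefSeq table held 7 of the 10 genes, and Acaca, Fasn and Elovl6 are named only. Capitals mark matches, searched on both strands, to the CCAAT box, to the E-box written CACGTG or to the GC box written GGGCGG. They also mark matches to the sterol regulatory element, a site SREBP binds, searched only as TCACNCCAC.
Acacb, chr12:48138215-48138464, minus strand: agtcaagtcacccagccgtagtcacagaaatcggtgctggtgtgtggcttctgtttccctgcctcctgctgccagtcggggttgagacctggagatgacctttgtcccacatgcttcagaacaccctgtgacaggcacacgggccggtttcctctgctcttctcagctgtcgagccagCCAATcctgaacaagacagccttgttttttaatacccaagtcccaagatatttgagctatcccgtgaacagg
Elovl5, chr8:87670914-87671163, plus strand: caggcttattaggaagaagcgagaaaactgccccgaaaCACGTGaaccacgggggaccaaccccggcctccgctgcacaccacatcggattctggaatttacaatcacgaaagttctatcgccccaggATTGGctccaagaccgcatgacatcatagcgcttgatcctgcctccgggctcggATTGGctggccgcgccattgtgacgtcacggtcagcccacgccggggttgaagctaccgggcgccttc
Fads1, chr1:216252442-216252691, plus strand: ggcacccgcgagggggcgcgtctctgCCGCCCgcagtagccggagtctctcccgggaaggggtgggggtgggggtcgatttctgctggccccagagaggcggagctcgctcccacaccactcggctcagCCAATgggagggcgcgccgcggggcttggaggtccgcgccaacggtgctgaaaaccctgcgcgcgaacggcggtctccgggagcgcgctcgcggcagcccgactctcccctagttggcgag
CCAAT stood in all of these windows, 1 time for Acacb, 2 times for Elovl5 and 1 time for Fads1, and in 4 of the 7 enzyme genes with a window, against 34.0% of 33469 windows of the same length. CACGTG stood in that of Elovl5 alone, 1 of 7, against 5.59% of all windows. GGGCGG stood in 4 of 7, against 30.5%, and these 4 were Fads1, Fads2, Me1 and Acly. TCACNCCAC stood in 0 of 7, against 0.974%. At that share a match in 7 windows was unlikely, so its absence does not show a lack of SREBP sites. A match describes the letters and is not a measured binding site.

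Where a gene had 2 probe sets, they did not always give the same picture. For Fasn the 2 probe sets had the same sign in 8 of 9 samples, and for Me1 in 7 of 9. For Acaca the sign was the same in 5 of 9. Its probe set 1387538_at was at -0.33, -0.57 and -0.33 at day 4 and at 0.95, 0.74 and 1.20 at day 7, whereas 1370893_at was at 0.01, 0.42 and 0.10 at day 4 and at 0.06, 0.68 and -0.09 at day 7. The swing of Acaca between day 4 and day 7 was thus that of 1387538_at, at 1.37 (SE 0.27, limma over all probe sets, adjusted p = 0.0697), while 1370893_at had day means of 0.18 and 0.22. For Elovl5 the signs matched in 5 of 9. Its probe set 1387630_at was at 0.88, 0.82 and 0.51 at day 2 and at -0.57, -1.15 and -0.44 at day 4, a difference of -1.46 (SE 0.23, limma adjusted p = 0.098). The other, 1388348_at, was at 0.24, 0.14 and 0.30 at day 2 and at -0.33, -0.54 and 0.07 at day 4. At day 7, 1387630_at was at 0.66, -0.03 and 0.44, and 1388348_at at -0.22, 0.02 and -0.36. Day 7 minus day 4 was 1.07 for 1387630_at (SE 0.23, limma adjusted p = 0.0807) and 0.08 for 1388348_at (SE 0.18, adjusted p = 0.921), whose samples of these days overlapped. Both probe sets of Elovl5 were above 0 in all samples of day 2. Of all probe sets 0.0189% passed for day 7 minus day 4 and 0% for day 4 minus day 2, and 0 of the 14 did in either. For day 7 minus day 2 it was 0% and again 0 of the 14.

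**Figure D3:**
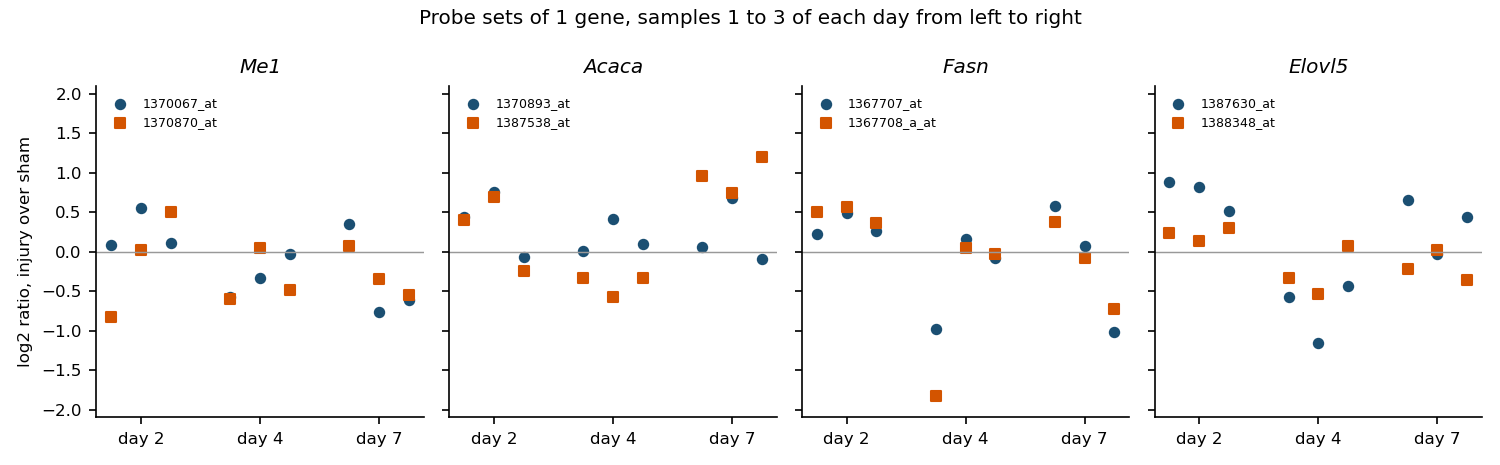
Centred log2 ratio of injury over sham (vertical axis) of the 2 probe sets of Me1, Acaca, Fasn and Elovl5 in samples 1 to 3 of days 2, 4 and 7, left to right. The probe sets of Acaca part at day 4 and in samples 1 and 3 of day 7, where 1387538_at reaches 1.20.

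Of 42 further genes of the pathway, 35 had a probe set of that gene alone, and 1 of them passed on 1 day. Prkaa2, a catalytic subunit of AMP-activated protein kinase, fell at day 2, at -1.03, -1.59 and -0.82 in samples 1 to 3, against -0.00985, -0.16 and -0.58 at day 4 and -0.30, -0.13 and -0.03 at day 7. Its mean at day 2 was -1.14 ± 0.40 (SD, n = 3, limma adjusted p = 0.0245), 1 of the 15 genes called that day, and it also passed over the mean of the 3 days. The call ended without a variance trend (limma adjusted p = 0.18), with the replicate block (0.0623), and without sample 1 (0.121) or sample 2 (0.199). The fit that includes day 1 gave 0.834. That fit also had no variance trend, and its day 1 values stand for other probe sets, so it cannot test the call. Prkaa1, the other catalytic subunit, was at 1.27, 0.49 and 0.04 at day 2, on the other side of 0, and its mean of 0.60 ± 0.63 did not pass.

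Among the 15 regulators, 12 had a mean above 0 at day 2, 3 at day 4 and 4 at day 7. The shares of all genes above 0 were 50.8%, 51.0% and 48.4%. Of the 9 hepatocyte markers, 8, 3 and 0 had a mean above 0 on these days. Srebf1, which encodes SREBP-1, was at 0.15 ± 0.02 at day 2, 0.24 ± 0.38 at day 4 and 0.06 ± 0.18 at day 7, and Mlxipl, which encodes ChREBP, at 0.17 ± 0.25, -0.38 ± 0.17 and -0.19 ± 0.32. Thrsp and Mid1ip1 encode related proteins that act on lipogenesis, and MID1IP1 promotes polymers of acetyl-CoA carboxylase. Thrsp had the highest mean of all 35 genes at day 2, 0.86 ± 1.01, with 1.32, 1.54 and -0.30 in samples 1 to 3, whereas Mid1ip1 was at -0.46 ± 0.30 at day 2, -0.68 ± 0.87 at day 4 and -0.65 ± 0.53 at day 7. Acsl3, which activates long-chain fatty acids with coenzyme A, was next highest of the 35 genes at day 2, at 0.62 (SE 0.19). None of these passed (limma adjusted p at day 2 = 0.519 for Thrsp, 0.702 for Mid1ip1 and 0.385 for Acsl3).

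At day 4 the highest of the 35 were Hacd2, a dehydratase of the elongation cycle, at 0.41 ± 0.15 (limma adjusted p = 0.361), and Acsl5, another acyl-CoA synthetase, at 0.37 (adjusted p = 0.468). The lowest were Mid1ip1 and Pdk4, a kinase that switches off pyruvate dehydrogenase, at -0.61 ± 0.35 (adjusted p = 0.572). At day 7 the highest were Ppara, the nuclear receptor that drives fatty acid oxidation, at 1.60 ± 0.96 (0.53, 2.37 and 1.92 in samples 1 to 3, adjusted p = 0.171), and Pdk4 at 0.95 ± 1.18 (0.88, -0.20 and 2.15, adjusted p = 0.273). The lowest were Nr1h2, which encodes LXR-beta, at -0.70 ± 1.14 (-0.12, -2.01 and 0.04 in samples 1 to 3), and Mid1ip1. Without sample 2 the value of Nr1h2 was -0.0416. The 8 partners of elongation and desaturation measured had 8 of 8 means above 0 at day 4 (median 0.12), against 51.0% of all genes. Hacd3, Fads3 and Scd2 were near 0, at 0.007 ± 0.27, 0.04 ± 0.37 and 0.05 ± 0.40. Of the enzymes of these steps, Scd and Fads2 were also above 0 at day 4, and Elovl5, Elovl6 and Fads1 were below 0. At day 7, 2 of 8 partner means were above 0 (median -0.28), against 48.4% of all genes. The supply genes had 5 of 7 means above 0 at day 2 (50.8% of all genes). Acss2, which makes acetyl-CoA from acetate, was at 0.46 ± 0.22 at day 2 and -0.35 ± 0.17 at day 4.

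**Figure D4:**
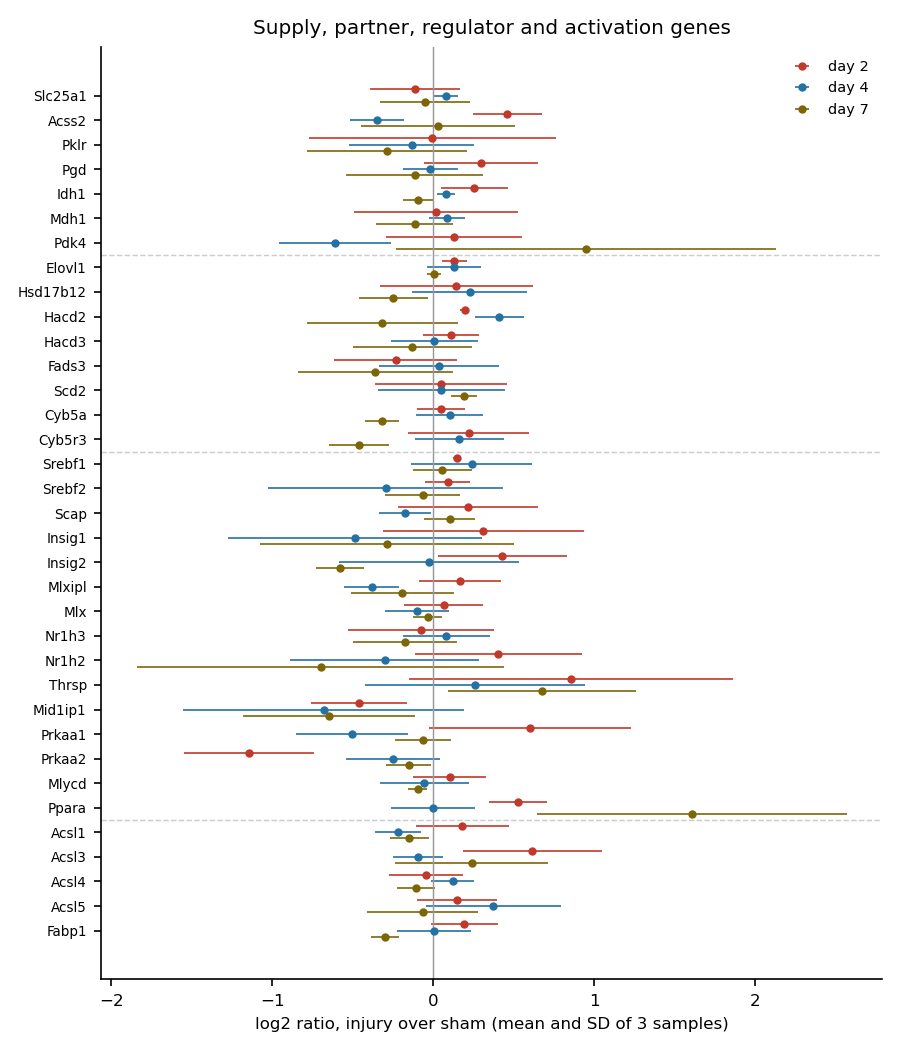
Mean centred log2 ratio of injury over sham with the SD of 3 samples (horizontal axis) at days 2, 4 and 7 for 35 genes that supply, accompany, regulate or follow the enzymes, with broken lines between the groups. Prkaa2 lies at -1.14 at day 2 and Ppara at 1.60 at day 7.

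The 15 sterol synthesis genes measured, which share the SREBP regulators with the fatty acid enzymes, are set beside them without a test. Their median per sample was between 0.19 and 0.36 at day 2, between -0.57 and -0.29 at day 4, and between -0.43 and 0.31 at day 7. The fatty acid enzymes lay between 0.07 and 0.72, between -0.53 and -0.07, and between -0.43 and 0.30. The samples ran alike on some days and not on others. Both groups had their highest median of day 7 in sample 1 and their lowest of day 4 in sample 1. At day 2 the sterol genes were highest in sample 3, at 0.36, where the fatty acid enzymes were lowest, at 0.07. At day 7 the sterol genes were lowest in sample 2, at -0.43, and the fatty acid enzymes in sample 3, also at -0.43.

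Markers of other cell types moved with some samples, and their part in these ratios was not tested. In a bulk sample, fewer cells of a type and less RNA per cell cannot be told apart. The 10 exocrine pancreas markers measured had medians of 0.03, 3.44 and 1.78 in samples 1 to 3 of day 4, and between -0.36 and 0.39 in the samples of days 2 and 7. In sample 1 of day 4 single markers lay far from that median, with Pnliprp1 at 2.75, Cpa1 at 2.23 and Cel at -0.72. The medians of the 9 hepatocyte markers, such as Alb and Ttr, lay between -0.03 and 0.24 at day 2, between -0.24 and 0.07 at day 4 and between -0.22 and -0.11 at day 7. Those of the 5 adipocyte markers measured lay between -0.71 and 0.30, between -0.11 and 0.29, and between -0.00497 and 0.53. The 4 macrophage markers had medians between -0.21 and 0.39, between 0.07 and 0.43, and between -0.29 and 0.13, and the 3 red cell markers between -0.50 and 0.53, between 0.47 and 0.81, and between -0.04 and 0.53. For the actin control probe sets, the log2 ratio of injury over sham at the 3′ end minus that at the 5′ end was taken. It was between -0.79 and -0.06 at day 2, between -0.35 and 0.38 at day 4 and between -0.88 and -0.44 at day 7. That of GAPDH was between -0.42 and 0.11, between -0.08 and 0.31, and between -0.80 and -0.21. A value below 0 means less 3′ relative to 5′ signal in injury than in sham RNA. It does not give the RNA quality of either group.

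**Figure D5:**
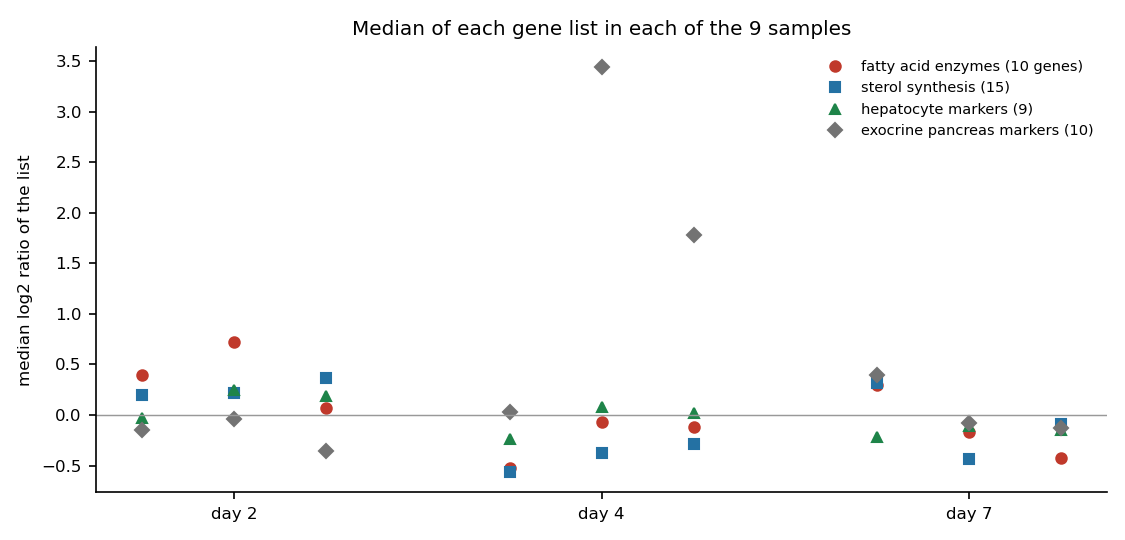
Median centred log2 ratio (vertical axis) of the 10 fatty acid enzyme genes, 15 sterol synthesis genes, 9 hepatocyte markers and 10 exocrine pancreas markers in samples 1 to 3 of days 2, 4 and 7, left to right. The pancreas medians stand at 3.44 and 1.78 in samples 2 and 3 of day 4, while both lipid groups are lowest for that day in sample 1.

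The genes outside the group whose ratios followed Fasn most closely over the 9 samples were Epha2 (Pearson r = 0.93, Spearman rho = 0.88), Cbfb (0.92 and 0.88), Mtrf1l (0.92 and 0.75), Atp6v1a (0.91 and 0.87) and Pomk (0.90 and 0.75). Those that followed Scd were Saal1 (0.93 and 0.88), Ypel5 (0.93 and 0.90), Serpinb9 (0.92 and 0.88), Cep120 (0.91 and 0.93) and Fcgr2b (0.91 and 0.90). These are the highest of all 10401 genes outside the group by construction, over samples that share their day and array, and carry no test. The lists for Fasn and Scd have no gene in common.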

How the data were processed

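The arrays were Affymetrix RAE230A, per the labels, with RNA of injured and of sham-treated rats. The authors deposited 1 log2 ratio per probe set and sample, with software, scaling and numerator not given in the sources used here. Pairs of whole numbers behind each ratio were sought by continued fractions (tolerance 1e-09, cap 20000). The rank correlation of the recovered signals between arrays lay between 0.664 and 0.717 among days 2, 4 and 7 and between -0.00261 and 0.0200 for day 1 with the others, so day 1 was left out. The median smaller signal over the 9 arrays, set to the cap where none was found, served as brightness. Of 15923 probe sets, 57 controls were left out, 12783 had 1 symbol, 312 several and 2771 none. Probe sets of a gene were averaged, and each array was centred on its median (-0.13 to 0.16). limma 3.58.1 in R 4.3.3 fitted a mean per day (6 residual degrees of freedom, eBayes with a trend on brightness). Benjamini-Hochberg adjustment covered 10411 genes, with a threshold of 0.05. The fit was also run on simulated data, with independent genes and the same spread of a gene on every array. Real arrays need not share these settings, and the outcome is not given here. The genes named are the 10 enzymes, and from the wider lists those past the threshold and the 2 highest and 2 lowest of each day. Srebf1, Mlxipl, Prkaa1 and Acss2 were added after their values were seen. The members and lists were chosen with earlier results of these data known. Alternatives covered centring, variance prior, array weights, probe set rule, dim probe sets, day 1, a block by sample number and leaving out samples.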

Additional observations from a re-analysis of the deposited data

Results flagged for a closer look

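In the following results, in the mean of each gene's probe sets, every sample of one day lay above 0 and every sample of the other below 0. None of the differences between the days passed after adjustment in limma. The share of all genes that met this rule was not counted. It can be at most the share whose samples do not overlap. That share was 7.03% with day 4 below day 2 and 8.58% with day 7 above day 4. The rule was not met by probe set 1370893_at of Acaca, above 0 in all samples of day 4. Nor was it met by 1388348_at of Elovl5, at 0.07 in sample 3 of day 4. Acacb differed by -1.73 for day 4 minus day 2 (means -0.84 and 0.90, adjusted p = 0.27) and by 1.95 for day 7 minus day 4 (means 1.11 and -0.84, adjusted p = 0.0672). Acaca differed by 0.71 for day 7 minus day 4 (means 0.59 and -0.12, adjusted p = 0.192). For day 4 minus day 2, Elovl5 differed by -0.97 (means -0.49 and 0.48, adjusted p = 0.131) and Fads1 by -0.53 (means -0.22 and 0.32, adjusted p = 0.471).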

How the results depend on the processing

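The number of enzyme genes called was 0 in all 8 comparisons and under the alternatives, with the exception of 1 (Acacb) for day 7 minus day 4 with array weights. Over all genes the counts moved more, and the cause was not tested. The fit with day 1 also had no variance trend, and its day 1 values stand for other probe sets. Its counts therefore cannot test the calls. At day 2 (15 genes) the count was 0 without a variance trend and with day 1 in the fit, and 9 without samples 2 and 3 of day 4, the pair with high pancreas markers, an alternative chosen after seeing the data. At day 4 (0 genes in limma, 1109 at an unadjusted p under 0.05) it was 1 with day 1, 36 with array weights, 1 without the dimmest probe sets and 2 without that pair. At day 7 (5 genes) it was 9 without centring, 0 without a trend, 1 with day 1, 8 without the dimmest probe sets and 1 without the pair. For the mean of days (34 genes) it was 4 without a trend, 8 with day 1 and 4 without the pair. For day 4 minus day 2 (0 genes) it was 1 with day 1 and 2 with array weights. For day 7 minus day 4 (3 genes) it was 0 without a trend and with day 1, 43 with array weights, 1 with the brightest probe set and 26 without the dimmest probe sets. In the F test (1 gene) it was 2 with array weights and 0 without centring, without a trend, with a robust prior, with day 1, with the brightest probe set, without the dimmest probe sets and without the pair. Leaving out 1 sample at a time gave 0 to 17 genes at day 2, 0 to 6 at day 4, 0 to 12 at day 7, 9 to 40 for the mean, 0 to 1 for day 4 minus day 2, 0 to 1 for day 7 minus day 2, 0 to 24 for day 7 minus day 4 and 0 to 6 in the F test.

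Deviations of same-numbered samples from their day means correlated between -0.041 and 0.068 over 9 pairs, and of others between -0.122 and 0.106 over 18. Same-numbered samples thus showed no visible shared deviation. The labels do not say whether they were paired, and these correlations cannot settle it. With the replicate block 4 genes were called at day 2, 1 at day 7 and 0 in the F test, and 0 of the 10 enzyme genes.

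Signs of some enzyme values turned. None of the 10 enzyme genes had passed before these changes, so no passing value could turn. With the brightest probe set alone Acaca was at 0.18 at day 4 and -0.16 for day 7 minus day 2, and Me1 at -0.032 for day 7 minus day 4. Without centring Fads1 was at 0.00474 and Fads2 at 0.028 at day 7. Without the pair of day 4, Fads2 was at -0.25 at day 4, -0.55 for day 4 minus day 2, 0.20 for day 7 minus day 4 and -0.00168 for the mean, and Fads1 at -0.077 for the mean. Leaving out 1 sample at a time turned the sign within these ranges. At day 2 they were -0.41 to 0.11 for Elovl6, -0.021 to 0.66 for Fads2 and -0.043 to 0.30 for Me1. At day 4 it was -0.73 to 0.026 for Fasn. At day 7 they were -0.68 to 0.057 for Acly, -0.27 to 0.055 for Fads2 and -0.44 to 0.24 for Fasn. For the mean they were -0.028 to 0.083 for Elovl5, -0.060 to 0.048 for Fads1 and -0.16 to 0.10 for Fasn. For day 4 minus day 2 it was -0.28 to 0.41 for Fads2. For day 7 minus day 2 they were -0.21 to 0.53 for Acacb and -0.70 to 0.044 for Elovl6. For day 7 minus day 4 they were -0.25 to 0.48 for Acly, -0.28 to 1.09 for Elovl6, -0.16 to 0.69 for Fasn and -0.24 to 0.16 for Me1.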
